A study of Mus musculus with 8 samples.

Results

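The cells described here are 642 of the 6481 disc cells kept at 8 weeks (9.91%, exact 95% interval 9.19 to 10.7%), and of 13480 kept at both ages. They were chosen by measured transcripts, from how many genes of a list in each cell had at least 2 unique molecular identifiers (UMIs, counts of captured transcripts). Members had at least 3 of the 5 genes Clec3b, Igfbp6, Cilp2, C1qtnf7 and Prg4. They also had more of these genes than of each of 3 lists for other disc cells: Cilp, Dmkn, Grem1, Cytl1 and Mmp3; Hp, Pcp4, Apod, Notum and Lef1; and Panx3, Fxyd2, Prkg2, Slc13a5 and Il17b. Cells with 30 or more Car3 UMIs, or with 10 or more UMIs summed over Krt8, Krt18 and Krt19, were set aside as cells with nucleus pulposus genes. Because measured transcripts chose the members, every difference from other cells given here is a description with no test, and intervals cover counting error only.

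The mice carried Tagln-CreERt2, a tamoxifen-inducible Cre under control of the gene for transgelin, and R26tdTomato, a Cre-dependent fluorescent reporter. All animals received tamoxifen at P5, and whole discs of the lumbar region (L1 to L6) and the tail (T5 to T9) were collected at P10 or 8 weeks, digested and profiled as single cells. All samples carried the driver and the reporter. The 4 samples of an age were deposited as 1 matrix with 1 barcode suffix, so each age is 1 library, no spread over animals can be given, and age and library cannot be told apart. Whole discs mix inner and outer annulus, endplate and core, and the labels do not place a cell within the disc. Kept cells had medians of 14844 UMIs at 8 weeks and 18300 at P10, and 12 barcodes occurred in both libraries, none of them a member's. Members had a median of 14806 UMIs (1131 to 78719) and 3176 genes, and 6 of them were called doublets by Scrublet.

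The annulus fibrosus is the layered ring of the disc. Its outer layers resemble ligament, with parallel bundles of type I collagen, and its inner layers resemble cartilage, with type II collagen and aggrecan. Fibroblasts of dense connective tissue secrete fibrillar collagens together with the small leucine-rich proteoglycans that bind to collagen fibrils, and tendon and ligament cells express tenomodulin and the transcription factors scleraxis and mohawk. Of the genes used to choose the members, Clec3b encodes tetranectin, a secreted lectin that binds plasminogen. Igfbp6 encodes an insulin-like growth factor binding protein with a preference for IGF-II. Cilp2 encodes a secreted matrix protein related to the cartilage intermediate layer protein Cilp, C1qtnf7 a secreted protein of the C1q and TNF related family, and Prg4 lubricin, the boundary lubricant of joint surfaces and gliding tissues. Angptl7, a further marker of these cells that the choice did not use, encodes a secreted angiopoietin-like protein.

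Members passed the choice mostly through 4 of its genes. Of the 642 members, 249 had 3 of the 5 genes, 326 had 4 and 67 had all 5. Cilp2 reached 2 UMIs in 636 members and Igfbp6 in 634. Prg4 did so in 494 (76.9%), Clec3b in 418 (65.1%) and C1qtnf7 in 204 (31.8%). The commonest combination, Clec3b with Igfbp6, Cilp2 and Prg4, was found in 253 members, and Igfbp6 with Cilp2 and Prg4 alone in 115. Cilp2 and Igfbp6 were thus shared by nearly all members, while Clec3b and C1qtnf7 marked overlapping portions of them. A member held a median of 124 UMIs of the 5 genes (5th to 95th percentile 33 to 287). The medians were 6 UMIs of the Cilp and Grem1 list, 0 of the Hp and Apod list and 0 of the Panx3 list.

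**Figure D1:**
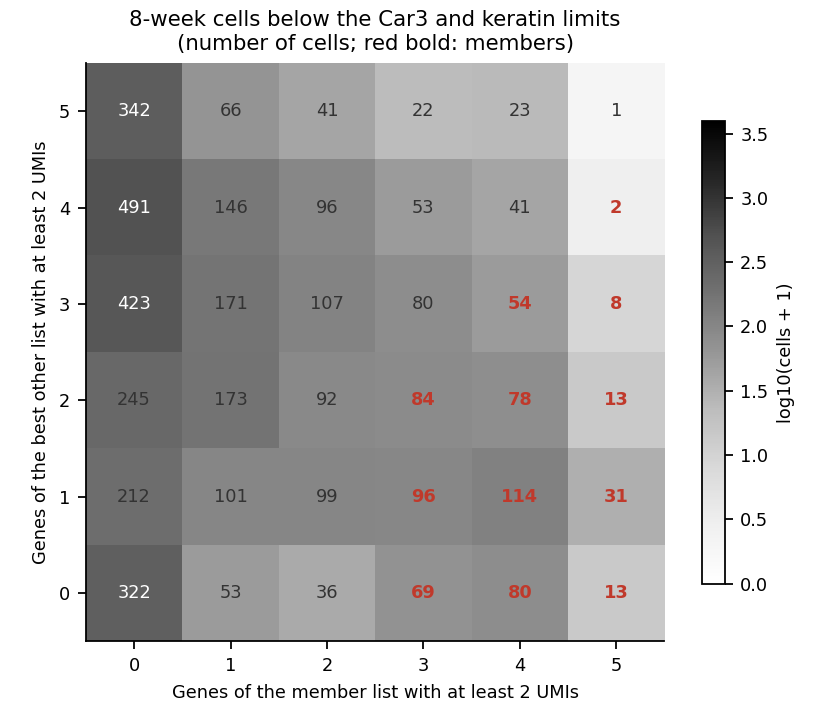
Number of kept 8-week cells below the Car3 and keratin limits, by how many of the 5 member genes (x axis) and how many genes of the best other list (y axis) had at least 2 UMIs; red bold numbers are members. Counts run on across the boundary: 84 members had 3 genes against 2, and the 80 cells with 3 against 3 lie just outside.

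The boundary runs through a continuous range of cells. Just inside it, 140 members led the next list by 1 gene. Just outside, 220 cells had at least 3 of the genes but were level with or behind another list, in 209 of them the Cilp and Grem1 list, and 135 had 2 of the genes and led. A further 35 met the gene counts but passed the Car3 or keratin limit. In cells level or behind, Clec3b stood at 121 UMIs per 1000000 gene UMIs (CPM, the scale of every level here, from the summed counts of a group of cells), against 737 in members, and Cilp at 276 against 65.9. In the cells 1 gene short, Clec3b was 72.7 and Ibsp, the gene of bone sialoprotein, was 11608, against 1759 in members. The plot of cells by gene counts shows this range, which has no gap at the boundary.

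Positions of genes are those of the mm10 build in GENCODE. Clec3b (ENSMUSG00000025784, chromosome 9, 123150946 to 123157432, plus strand) had 737 CPM in members (exact interval 720.3 to 754), 26.9 in the 685 Cilp Grem1 cells, which were chosen in the same way with their own list, and 0.682, 5.87 and 7.12 in Hp Apod, Panx3 and Car3 or keratin cells. Across single members Clec3b ran from 0 at the 5th percentile through a median of 367 to 3174 CPM at the 95th. Igfbp6 (ENSMUSG00000023046, chromosome 15, 102144362 to 102149511, plus strand) had 1545 CPM in members (1521 to 1569) and 224 in Cilp Grem1 cells, with a member median of 1319. Clec3b was therefore unevenly spread over members, while Igfbp6 was above 0 even at the 5th percentile (245 CPM).

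Cilp2 (ENSMUSG00000044006, chromosome 8, 69880369 to 69887687, minus strand) had 5729 CPM in members and 2656 in Cilp Grem1 cells, a log2 ratio of 1.11 (1.09 to 1.13), so it separated these neighbouring cells least of the 5 genes. C1qtnf7 (ENSMUSG00000061535, chromosome 5, 43515538 to 43618803, plus strand) had 120.2 CPM in members and 8.25 in Cilp Grem1 cells, with 10.6% of its member UMIs in 1 cell. Prg4 (ENSMUSG00000006014, chromosome 1, 150449412 to 150466165, minus strand) had 585 and 134. Both C1qtnf7 and Prg4 were at or under 11.7 CPM in Hp Apod, Panx3 and Car3 or keratin cells.

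Angptl7 (ENSMUSG00000028989, chromosome 4, 148495183 to 148500460, minus strand) had 1408 CPM in members (1385 to 1431), 282 in Cilp Grem1 cells, 1.48 in Hp Apod cells, 7.43 in Panx3 cells and 13.4 in Car3 or keratin cells. Its 5th, 50th and 95th percentiles over members were 0, 548 and 5792 CPM, a wide range for a gene that the choice did not use. With each cell thinned to 5000 UMIs, an Angptl7 UMI was found in 62.7% of members, 20.7% of Cilp Grem1 cells and 3.45% of blood cells, which should lack it. For Clec3b these shares were 62.5%, 8.23% and 0%, where 0 of 58 blood cells allows up to 6.16%. Before thinning, Angptl7 was found in 452 of 642 members, 195 of 685 Cilp Grem1 cells and 3 of 96 blood cells, and Clec3b in 462, 97 and 1. Thinning left out 47 members, 29 Cilp Grem1 cells and 38 of 96 blood cells, whose median depth was 6417 UMIs. Blood cells, taken from cells outside the members and below the Car3 and keratin limits, gave a level for free RNA in this library. The choice fixed the direction for Clec3b, and Angptl7, which it did not use, was above that level in members. Angptl7 was among the markers given for these cells, so its direction is not independent support.

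Genes outside the choice varied with the number of member genes a cell had. Angptl7 stood at 573, 1777 and 1786 CPM in members with 3, 4 and 5 of the genes. Col3a1 followed the same order with 3562, 5531 and 8782, and Col2a1 the opposite one with 17480.3, 5659 and 3068. Members that only just met the choice thus had more type II collagen and less type III collagen than those with all 5 genes. Deeper cells reach 2 UMIs of more genes, and the part of depth in this order was not tested.

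**Figure D2:**
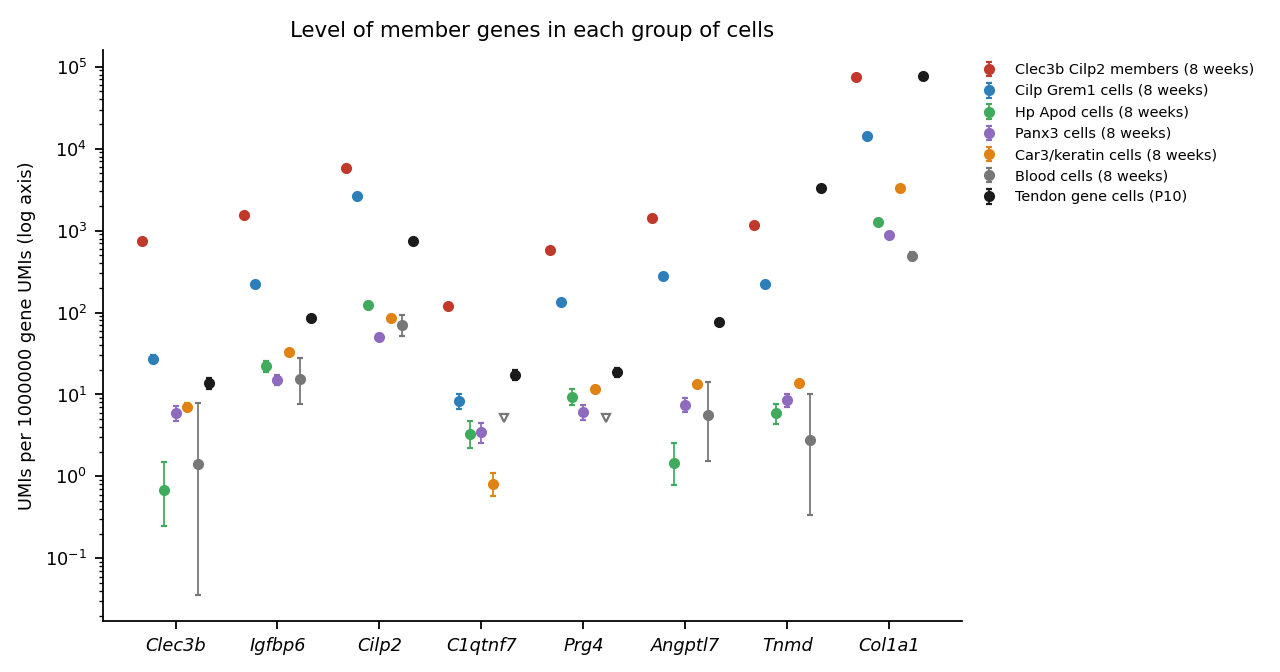
Level of 8 genes in 6 groups of 8-week cells and in P10 tendon gene cells, as UMIs per 1000000 gene UMIs on a log axis; points are summed cells, bars exact 95% Poisson intervals, and open triangles the upper limit where no UMI was counted. Members (red) are highest for the 6 marker genes, with Cilp Grem1 cells next at 8 weeks for each, whereas Tnmd and Col1a1 are as high or higher in P10 tendon gene cells.

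Promoter sequences were set beside these levels for genes that differed between members and Cilp Grem1 cells: Angptl7, Igfbp6 and Sfrp2 (higher in members) and Cilp (higher in Cilp Grem1 cells). Each is the 250 bases before the RefSeq gene start in GRCm38.p6, written 5′ to 3′ on the gene's strand. Capitals mark matches, on either strand, to TATAAA, to the SOX-type letters AACAAT, to the AP-1 letters TGANTCA or to the E-box letters CANNTG. Of 32851 promoters of this length, 12.37% held TATAAA, 9.424% AACAAT, 6.749% TGANTCA and 66.22% CANNTG. Clec3b and Prg4 are named only.
Angptl7 (chr4:148500463-148500712, minus strand): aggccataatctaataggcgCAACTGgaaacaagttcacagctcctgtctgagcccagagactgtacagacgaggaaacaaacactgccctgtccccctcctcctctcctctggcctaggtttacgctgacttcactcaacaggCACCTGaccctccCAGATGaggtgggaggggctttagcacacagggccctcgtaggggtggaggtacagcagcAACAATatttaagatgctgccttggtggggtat
Igfbp6 (chr15:102143936-102144185, plus strand): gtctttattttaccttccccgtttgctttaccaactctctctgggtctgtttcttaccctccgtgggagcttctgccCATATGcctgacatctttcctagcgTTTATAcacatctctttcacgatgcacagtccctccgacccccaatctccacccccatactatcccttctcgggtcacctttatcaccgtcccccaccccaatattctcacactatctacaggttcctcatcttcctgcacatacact
Sfrp2 (chr3:83766071-83766320, plus strand): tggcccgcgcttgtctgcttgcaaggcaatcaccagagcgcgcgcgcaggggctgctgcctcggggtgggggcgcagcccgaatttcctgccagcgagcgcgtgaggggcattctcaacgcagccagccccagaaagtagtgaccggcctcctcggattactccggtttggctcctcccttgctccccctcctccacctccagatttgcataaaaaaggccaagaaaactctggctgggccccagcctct
Cilp (chr9:65264930-65265179, plus strand): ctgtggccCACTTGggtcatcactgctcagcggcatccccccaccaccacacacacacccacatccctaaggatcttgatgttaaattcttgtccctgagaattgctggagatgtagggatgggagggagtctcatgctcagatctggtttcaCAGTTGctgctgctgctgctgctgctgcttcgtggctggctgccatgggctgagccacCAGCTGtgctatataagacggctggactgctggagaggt

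The Angptl7 promoter held 3 E-box matches and 1 AACAAT match whose first base lies 33 bases before the start. The Igfbp6 promoter held 1 TATAAA match on the opposite strand, 148 bases before the start, and 1 E-box match, and the Cilp promoter held 3 E-box matches. Distances are to the RefSeq start, which for Igfbp6 lies before the GENCODE start given above. None of the 4 patterns was found in the Sfrp2 window. No pattern was common to the 3 genes higher in members. A match of letters is a description, not a binding site.

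The name fibroblast was checked against marker lists. The 8 fibroblast markers (Col1a1, Col1a2, Col3a1, Dcn, Lum, Pdgfra, Dpt and Fbln1) summed to 153694 CPM in members, 35918 in Cilp Grem1 cells and 3777 in Hp Apod cells, and all were detected in members. The 8 tendon markers, Col1a1 again among them, summed to 91115 and 20279 CPM in members and Cilp Grem1 cells. Type I collagen made up most of both sums in members, through Col1a1 and Col1a2 in the fibroblast list and Col1a1 in the tendon list. A selection on tendon genes alone overlapped with members: of 466 cells of 8 weeks with at least 3 of Tnmd, Scx, Thbs4, Mkx and Kera, 264 were members, 56.7% of those cells and 41.1% of members. Pi16 and Dpp4, markers of interstitial fibroblasts of many organs, had 0 UMIs in members. They were the only 2 of the 14 genes of that list at 0. Of its 11 measured genes 5 were at least 2-fold higher in members than in Cilp Grem1 cells and 0 lower (share of all genes 3.52% and 9.45%).

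Macrophage, neutrophil and endothelial markers were low in members, and the higher sums of other lists came mostly from single genes or cells. Macrophage markers summed to 6.36 CPM (C1qb and Adgre1 at 0), neutrophil markers to 2.84 (Mmp8 at 0) and endothelial markers to 23.99, with none of the 8 endothelial genes at 0. Adipoq, Cidec, Cfd and Plin4 of the adipocyte list, Myh4, Actn3 and Pvalb of the muscle list and Higd1b of the mural list were at 0. The mural sum of 1868 CPM was almost wholly Ndufa4l2 (1863 CPM, and 2333 in Car3 or keratin cells), and the Schwann sum of 418 almost wholly Pmp22 (405). Ibsp gave 1759 of the osteoblast sum of 1889 CPM, which was 373 in Cilp Grem1 cells and 4246 in Hp Apod cells. All 4 measured osteoblast markers were at least 2-fold higher in members than in Cilp Grem1 cells (share of all genes 3.52% higher and 9.45% lower). Against Hp Apod cells 1 of 5 was higher and 3 were lower (share of all genes 9.2% and 19%). The 4 were also higher in 1 sub-cluster of 131 members than in the others, and Clec3b was lowest there (sub-cluster 4 below). The erythroid sum of 912 CPM came from 1 member that held 99.5% of the Hbb-bs UMIs. The nucleus pulposus list summed to 233 CPM, against 25796 in Car3 or keratin cells and 365 in blood cells. Car3, Krt8, Krt18 and Krt19 of that list set the limits that parted these groups. Their low levels in members and blood cells are therefore fixed by choice. Chondrocyte markers summed to 10786 CPM, against 31344 in Cilp Grem1 and 5979 in blood cells. Hypertrophic markers, among them Panx3, Fxyd2 and Prkg2 of the choice, summed to 484 CPM, against 361 in Cilp Grem1 cells. Of 5 measured, 3 were at least 2-fold higher in members than in Cilp Grem1 cells and 2 lower. In sub-cluster 4 all 5 were at least 2-fold higher than in the other members. The part of other cell types in the results was not tested. Without the 11 members in which such markers reached 10 UMIs, the counts of differing genes moved by under 1.5 times. For this step Ndufa4l2, Pmp22, Ibsp and Smpd3 were left out of the markers after the data were seen. It therefore does not take out cells through Ibsp or Smpd3, and 168 members had 10 or more UMIs of the osteoblast list. With those genes kept in, few members remained and the counts changed more, as given in the closing section.

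Members were set beside Cilp Grem1 cells, which lie next to them at the boundary of the choice. The genes Cilp, Dmkn, Grem1, Cytl1 and Mmp3 chose the Cilp Grem1 cells, so their direction is fixed, as is that of the 5 member genes. Of 9369 genes with at least 100 UMIs in the 2 sums together, 330 (3.52%) were at least 2-fold higher in members and 885 (9.45%) at least 2-fold lower. The median gene was at a log2 ratio of -0.18, against which list medians are to be read, and the choice used this contrast, so nothing is read from the counts. With ratios centred on the median gene the counts were 440 higher and 654 lower. Median depths were 14806 and 13464 UMIs.

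Fibrillar collagens were higher in members. Each list is described by its genes past the minimum, its count at 2-fold and its median. Of the 10 genes of the list, 9 passed the minimum, 6 of them at least 2-fold higher and 0 lower (share of all genes 3.52% and 9.45%), with a median log2 ratio of 1.78. The list also holds Col14a1, which is a fibril-associated and not a fibrillar collagen. Col1a1, a chain of type I collagen, had 75084 CPM in members and 14431 in Cilp Grem1 cells, and over single members it ran from 24626 to 139121 CPM (5th to 95th percentile). Its partner chain Col1a2 had 66452 and 19311. Together the list took 150659 CPM in members and 36415 in Cilp Grem1 cells. Col3a1, the type III collagen of pliable connective tissue, had 5393 and 948 CPM (log2 ratio 2.51, 2.48 to 2.54). The fibril-associated collagens Col12a1 (143 and 25.2 CPM) and Col14a1 (20.8 and 0.702) followed the same direction, Col14a1 at a log2 ratio of 4.89 (3.88 to 6.12) on 8 UMIs in Cilp Grem1 cells. The type V chain Col5a3 was level, at 12.1 and 12.1.

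Enzymes that fold and cross-link collagen did not follow the collagens. Of 18 genes, 16 passed the minimum and none differed by 2-fold, with a median of 0.051. Serpinh1, the collagen chaperone HSP47, had 619 CPM in members and 344 in Cilp Grem1 cells, the highest ratio of the list (log2 0.84), and Plod2, a lysyl hydroxylase of collagen telopeptides, had 425 and 812, the lowest (-0.93). Of the type VI collagen chains, Col6a1 had 3013 and 3004 CPM, Col6a2 1782 and 1598 and Col6a3 2074 and 1918. In its list of type VI, type IV and basement membrane genes, 1 of 11 measured genes was 2-fold higher (Lama4, 17.9 and 7.55 CPM) and 0 lower, with a median of 0.45.

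Small leucine-rich proteoglycans were higher as a group, 8 of 12 measured genes by at least 2-fold and 0 lower, with a median of 1.30. Decorin (Dcn), which binds type I collagen and limits fibril width, had 6481 CPM in members and 1084 in Cilp Grem1 cells, 271 in Hp Apod cells and 94.2 in Panx3 cells. Fibromodulin (Fmod) had 9298 and 2455 CPM in members and Cilp Grem1 cells, and Ecm2 433 and 174. Aspn, the gene of asporin, was at 50.6 and 10.01, but 1 member held 23.6% of its member UMIs. Prelp (1317 and 742) and Ogn (77.5 and 52.05) differed by less than 2-fold.

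Of the tendon and ligament list, 4 of 6 measured genes (11 in the list) were at least 2-fold higher in members and 0 lower, with a median of 1.57. Tnmd, the tendon membrane protein tenomodulin, had 1181 CPM in members and 223 in Cilp Grem1 cells, with 5.91, 8.51 and 13.9 in Hp Apod, Panx3 and Car3 or keratin cells. It had a UMI in 589 of 642 members. Thbs4, a thrombospondin of tendon matrix, had 396 and 83.996. The tendon transcription factors differed less: Scx had 110.1 and 62.5 CPM, and Mkx 63.1 and 58.7 (log2 ratio 0.10, -0.056 to 0.26). Tnmd and Thbs4 thus differed by more than 2-fold, and Scx and Mkx by less. The list also held 1500015O10Rik, the gene of the secreted peptide precursor augurin, at 5014 and 1608 CPM, which was unevenly spread over sub-clusters of members.

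Matricellular and elastic genes were mixed. Of 15 measured matricellular genes 4 were at least 2-fold higher and 1 lower, with a median of 0.36. Spp1, osteopontin, had 37978 CPM in members and 15238 in Cilp Grem1 cells, Thbs2 719 and 274, and Nov, a CCN family protein, 89.4 and 11.1. Tenascin C (Tnc) stood at 16.2 and 0.965 CPM. The gene lower by at least 2-fold was Wisp2, another CCN family gene, at 15.96 and 99.2. Of 18 measured elastic fibre and lysyl oxidase genes 4 were higher and 2 lower by 2-fold, with a median of 0.60. Ltbp4, which binds latent TGF beta in elastic tissue, had 129 and 39.3 CPM, while Emilin1, which sits at the elastin surface, was lower (115 and 276). Elastin itself (Eln) was at 79.7 and 136 CPM.

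Cartilage matrix genes were lower in members. Of 15 measured genes (18 in the list) 8 were at least 2-fold lower and 1 higher, with a median of -1.03. Col2a1, type II collagen, had 8923 CPM in members and 25383 in Cilp Grem1 cells, a log2 ratio of -1.51. This value depended on the choice: it was -0.65 with 2 of the 5 genes asked for, -0.97 with 1 UMI counting a gene as present and -2.32 with 4 genes, and the list median was -0.58 with 2 genes. Blood cells, which should lack it, held 3772. Over single members Col2a1 had a median of 349 CPM, below the blood level, and a 95th percentile of 45844. Most members thus lay below the blood level, and a smaller part far above it. Aggrecan (Acan) had 776 and 2650.3 CPM, with 729.9 in blood cells, and Ucma, a secreted cartilage protein, 80.7 and 709.6. The exceptions were Matn2, a matrilin of noncartilage tissues, higher in members at 403 and 188, and chondroadherin (Chad), at 7639.9 and 4153 (log2 ratio 0.88, 0.86 to 0.90).

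Ranked by the end of the interval that lies closer to no difference, the leading genes included Sfrp2, Clec3b, Ptgfr, Tmem119, Serping1, Col14a1, Flrt2, Camk4, C1qtnf7, Dlx5 and Aqp1. Clec3b and C1qtnf7 are there by choice of the cells. Serping1, the inhibitor of complement C1 and of contact-phase proteases, had 176 UMIs in members and 6 in Cilp Grem1 cells (17.2 and 0.527 CPM). In the list of complement and C1q and TNF related genes, 6 of 10 measured genes were at least 2-fold higher and 0 lower (median 1.91). The summed level of the list was 2176 CPM in members and 3140 in Cilp Grem1 cells, so the sum and the median differed in direction. Among the higher genes were C1qtnf1, C1qtnf2, C1qtnf3 and C1qtnf6, from 13.6 CPM for C1qtnf1 to 112 for C1qtnf6. C3 (40.6 and 30.5) did not differ by 2-fold.

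Ptgfr, the receptor of prostaglandin F2 alpha, had 122 UMIs in members and 1 in Cilp Grem1 cells (log2 ratio 7.09, 4.58 to 12.40), at a member level of 11.9 CPM. Tmem119, a membrane protein of bone-forming cells and microglia, had 63.6 and 2.896 CPM, and Aqp1, a water channel, 80.2 and 5.97. Sfrp2, a secreted Wnt modulator, had 29.96 and 0.527 CPM, but 1 member held 39.5% of its UMIs. Dlx5, a homeobox transcription factor of skeletal development, had 18.2 and 0.878, the adhesion receptor gene Flrt2 13.2 and 0.351, and the kinase gene Camk4 22.5 and 0.878. Most of these genes were at low levels even in members, where the fewest UMIs (122) were those of Ptgfr.

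**Figure D3:**
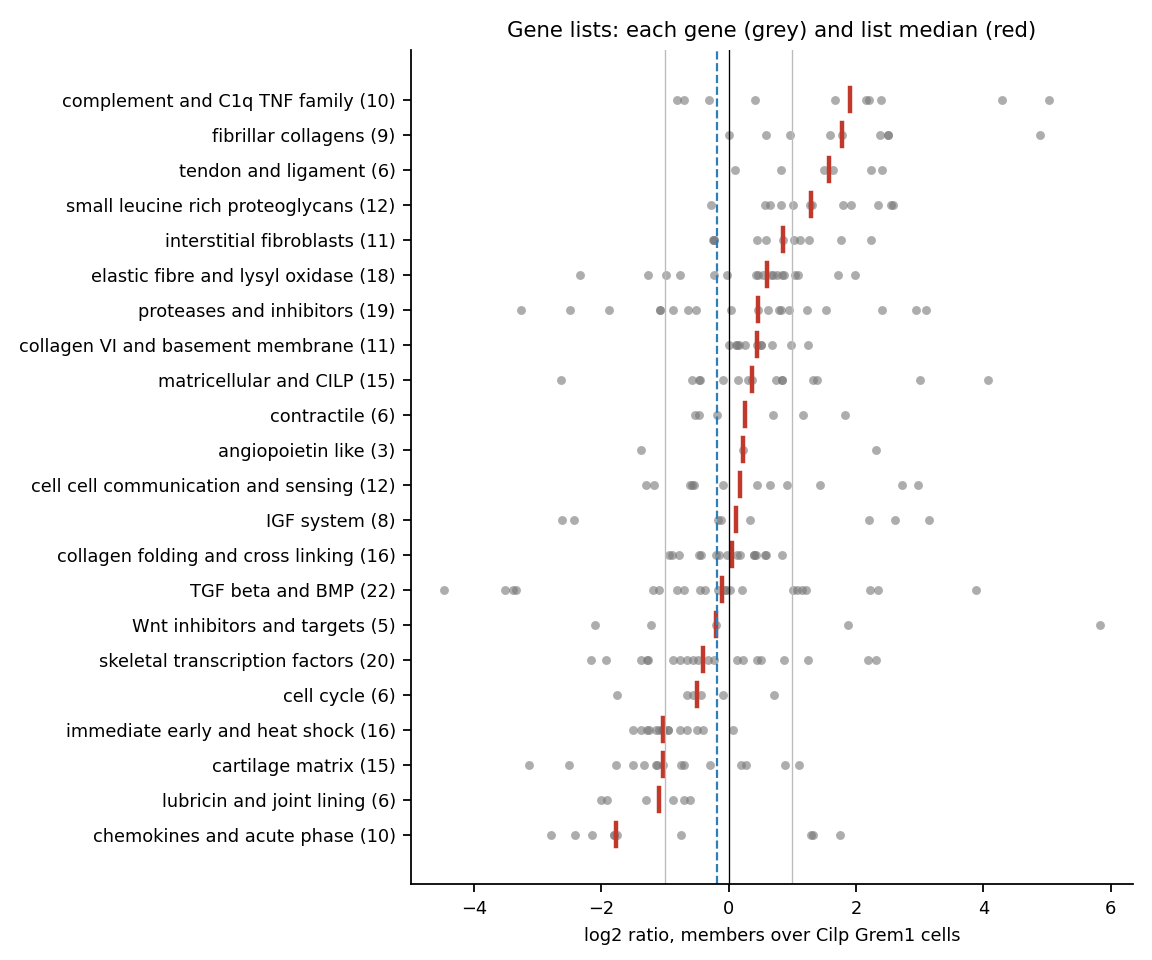
log2 ratio of members over Cilp Grem1 cells for each gene (grey points) of 22 lists, with the number of measured genes in brackets, the list median in red, the median of all genes as a dashed line at -0.18 and thin lines at 2-fold. Lists of complement, fibrillar collagen, tendon and proteoglycan genes lie to the right, and lists of chemokine, lubricin, cartilage and immediate early genes to the left.

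The lowest genes were Saa1, Ms4a4c, Pgm5, Krt16, Bdkrb2, Nos1, Padi2, Cilp, Gdf6, Mgarp, Mmp12 and Arc. Saa1, an acute-phase apolipoprotein, had 3.23 CPM in members and 328 in Cilp Grem1 cells. Krt16, a stress-type keratin, had 18.5 and 398, and the bradykinin receptor gene Bdkrb2 0.979 and 32.8. Gdf6, a BMP family ligand of joints and vertebrae, had 1.17 and 25.98 CPM, and its relative Gdf5 3.72 and 42.6. Cilp itself, at 65.9 and 1069 CPM, is there because it was used to choose the cells, and its relative Cilp2 was lower in the Cilp Grem1 cells. The choice fixes both directions.

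Secreted signals and their inhibitors differed in both directions within each family. The medians of the IGF, TGF beta and BMP, Wnt, contact, contractile and collagen folding lists changed sign under at least 1 other setting and give no direction. In the IGF list 3 of 8 measured genes were at least 2-fold higher and 2 lower (median 0.11). The binding protein Igfbp4 had 638 CPM in members and 72.4 in Cilp Grem1 cells, and Igfbp5 349 and 56.8. Igfbp7, the gene of the list with the most UMIs in members, had 3658 and 4108. The other higher gene was Igf1 itself, at 23.5 and 5.09 CPM. Pappa, the protease that cleaves Igfbp4, was lower (2.25 and 13.8), as was Stc2, an inhibitor of that protease (12.8 and 69.3).

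In the TGF beta and BMP list 7 of 22 measured genes were higher and 6 lower (median -0.11). Inhba, the activin A subunit, had 132 CPM in members and 1347 in Cilp Grem1 cells, while Fst, the activin inhibitor follistatin, had 29.9 and 2.02. Ligand and inhibitor of the activin system thus lay in opposite directions. Fstl1 had 293 and 57.8 CPM. Bmp2 was lower (144 and 327), as was the inhibitory Smad7 (170.1 and 362). In the Wnt list 5 of 18 genes passed the minimum, 2 higher and 2 lower (median -0.20): Dkk3 was higher (276 and 75.1 CPM) with Sfrp2, and Frzb (131 and 306) and Sfrp5 were lower.

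Proteases and their inhibitors split evenly, with 5 of 19 measured genes higher and 5 lower (median 0.45). Serpinf1, the secreted serpin PEDF, had 1354 CPM in members and 157 in Cilp Grem1 cells. Mmp2, a gelatinase, had 111 and 14.4, and the procollagen proteinase genes Adamts2 (337 and 63.4) and Bmp1 (146 and 69.4), with the enhancer Pcolce (495 and 172), were higher as well. Bmp1 stands in the TGF beta and BMP list. Of the tissue inhibitors of metalloproteinases, Timp3 had 137 and 504 CPM, Timp1 162 and 343, Timp4 1.57 and 15.01, and Timp2, the gene of the 4 with the most UMIs in members, 1399 and 1021.

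Prg4 aside, genes of joint lining and hyaluronan synthesis were lower in members. Of 6 measured genes 3 were at least 2-fold lower and 0 higher (median -1.09). The hyaluronan synthase genes Has1 (62.9 and 155 CPM) and Has2 (12.8 and 48.3) and the serine protease gene Htra4 (17.4 and 70.1) made up that count. Of 11 measured genes of interstitial fibroblasts 5 were higher and 0 lower (median 0.85), among them Pdgfra, the receptor that marks many fibroblasts (52.1 and 21.7), and Dpt, dermatopontin (9.89 and 2.11).

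Chemokine and stress genes were lower. Of 10 measured chemokine and acute-phase genes 6 were lower and 3 higher (median -1.77), and of 16 immediate early and heat shock genes 9 were lower and 0 higher (median -1.03). Ccl2, a monocyte chemokine, had 168 CPM in members and 741 in Cilp Grem1 cells, and Junb 1267 and 3068. Among immediate early genes Egr1 had 778 and 1668 and Atf3 685 and 1412. The chemokine list's genes higher in members were Cxcl14, a constitutive chemokine (50.8 and 15.2), Serpina3n and Il33, a nuclear cytokine of barrier and stromal cells (41.02 and 16.7).

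Of 20 measured skeletal transcription factors 3 were at least 2-fold higher and 5 lower (median -0.40). Those higher were Prrx1, a factor of limb and connective mesenchyme (84.002 and 16.9 CPM), Creb3l1, an activator of type I collagen transcription and secretion (206 and 45.3), and Meox1 (18.99 and 7.99). Those lower were Sox9, the main cartilage factor (648 and 2464), its partner Sox5 (52.5 and 127), Runx1, Osr2 and Nfatc1. Sox9 thus lay in the direction of the cartilage matrix genes and Creb3l1 in that of the collagens. Among genes of contact and mechanical sensing 3 of 12 were higher and 2 lower (median 0.18). The collagen receptor Itga11 (19.8 and 2.98 CPM), Cdh11 and Cdh13 were higher, and the ion channel Trpv4 (62.5 and 153) and the hyaluronan receptor Cd44 were lower. Of 6 measured contractile genes 2 were higher, Acta2 (12.1 and 3.42) and Tpm2 (18.9 and 8.43), and 0 lower (median 0.26). Of 3 measured angiopoietin-like genes Angptl7 was higher and Angptl4 (2.64 and 6.85) lower (median 0.23). Of 16 cell cycle genes, 6 passed the minimum, 0 higher and 1 lower (median -0.50), and Mki67 stood at 2.55 CPM, with 61.5% of it in 1 member.

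Members were also set beside the other 8-week groups, whose own genes the choice used too. Against the 562 Hp Apod cells 859 of 9335 genes (9.2%) were at least 2-fold higher and 1771 (19%) lower, with the median gene at -0.16. Against the 609 Panx3 cells these counts were 1050 (10.3%) and 2205 (21.7%) of 10146 genes, at a higher Panx3 depth (median 24027 UMIs) and a median gene of -0.30. Against the 2403 Car3 or keratin cells they were 956 (8.04%) and 3378 (28.4%) of 11884, with the median gene at -0.54. The fibrillar collagen list had medians of 3.80, 5.09 and 4.36 in these comparisons, and the cartilage list -3.02, -3.72 and -0.94. Of the measured cartilage genes 13 of 15, 14 of 16 and 7 of 15 were at least 2-fold lower in members, and 2, 2 and 3 higher. The summed level of the list was 20514 CPM in members and 13945 in Car3 or keratin cells, so there the sum and the median differed in direction. The cartilage median was lowest against Panx3 cells, where Col2a1 stood at 50696 CPM.

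Single genes show the range of these differences. Col3a1, the leading collagen against Hp Apod cells, had 5393 CPM in members and 38.7, 35.6 and 62.2 in Hp Apod, Panx3 and Car3 or keratin cells. Mgp, matrix Gla protein, an inhibitor of calcification, had 304 CPM in members against 38798 in Hp Apod and 7514 in Panx3 cells. Col10a1, the hypertrophic collagen, had 22.1 against 3479.5 in Panx3 cells. Abi3bp, a secreted binding protein of mesenchymal matrix, set members (1388 CPM) and Cilp Grem1 cells (1449.5) together apart from Hp Apod (41.7) and Panx3 cells (10.1). Myoc, the secreted glycoprotein myocilin, was shared by members (1823), Cilp Grem1 cells (989.7) and Hp Apod cells (886), and low in Panx3 cells (25.9). Car3, Krt8 and Krt19 stood at 73.9, 10.9 and 9.399 CPM in members and at 117, 20.97 and 13.98 in blood cells. Both groups were taken below the Car3 and keratin limits, so low levels of these genes are fixed by choice in each.

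Clustering of the members alone (Leiden, resolution 0.5) gave 4 sub-clusters of 226, 148, 137 and 131 cells. Their defining genes are descriptions, since the same counts formed them, and each sub-cluster was set beside the other members over 7070 genes. The shares of genes at least 2-fold higher and lower were 3.07% and 3.08% in sub-cluster 1, 1.36% and 3.21% in 2, 0.905% and 6.34% in 3 and 2.49% and 3.66% in 4. Cilp2, Igfbp6 and Prg4 were present in all 4, with Cilp2 between 5012 and 6663 CPM. Clec3b and C1qtnf7 varied more, and since a member needed 3 of the 5 genes, a cell without one of them had to pass through others. Clec3b was 615, 1559, 932 and 50.2 CPM in sub-clusters 1 to 4, and C1qtnf7 was 54.2, 122, 48.6 and 283.

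Sub-cluster 2 had the highest levels of several collagen and fibroblast genes. Its leading genes were Aspn, Dpt, Igf1, Col14a1, Aqp1 and Ebf1, of which Dpt had 36.2 CPM against 1.92, 0 and 5.58 in sub-clusters 1, 3 and 4, and Aqp1 249 against 17.02, 13.3 and 75.9. Of 9 genes of the fibrillar collagen list, which holds Col14a1, 3 were at least 2-fold higher than in the other members and 0 lower. Of 15 cartilage matrix genes 10 were at least 2-fold lower and 0 higher. Col3a1 reached 9571 CPM, Tnmd 1842 and decorin 9225, while Col2a1 stood at 1239, under the level in blood cells. Several genes that led members over Cilp Grem1 cells were highest in sub-cluster 2, among them Tmem119 (128 CPM), Serping1 (45.7) and Ptgfr (28.1).

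Sub-cluster 4 carried cartilage and mineral genes. It led in Alpl, the phosphatase of mineralizing cells (845 CPM against 5.75, 5.88 and 3.996 in sub-clusters 1 to 3), Sfrp5, Scube1, H19, Mia and Smpd3, a phosphodiesterase of skeletal mineralization. Ibsp stood at 6646 CPM against at most 389, the augurin gene 1500015O10Rik at 17993 against at most 1455, and the Wnt inhibitor Wif1 at 2145 against at most 438. Of 15 cartilage matrix genes 10 were at least 2-fold higher and 0 lower, with Col2a1 at 20801 CPM, and all 4 measured osteoblast markers were higher. Angptl7 (161 CPM), Tnmd (378) and Thbs4 (109) were at their lowest here, while Col1a1 stood at 61446 CPM, against 66595 in sub-cluster 1 and 94080.4 in sub-cluster 3. It held 5 of the 6 members called doublets, and H19 came largely from 1 cell (37.7% of member UMIs). The part of doublets in these values was not tested.

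**Figure D4:**
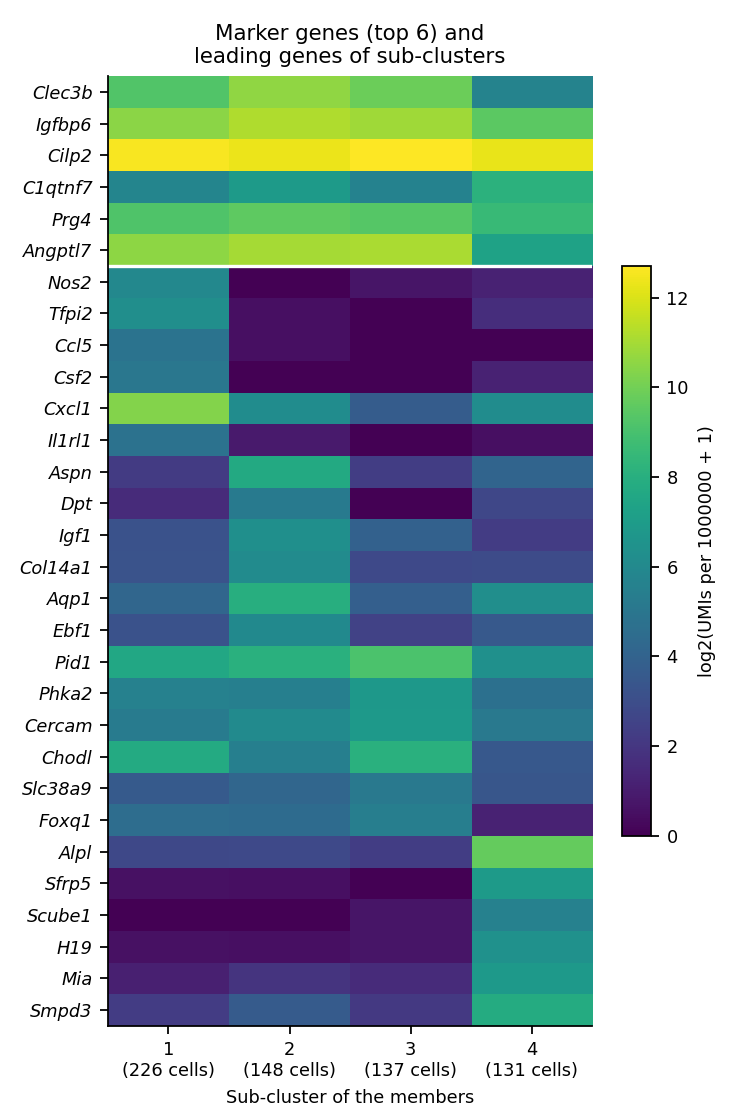
Levels of the 6 marker genes (top) and of the 6 leading genes of each sub-cluster of members, as log2 of UMIs per 1000000 plus 1, with sub-clusters as columns. Clec3b and Angptl7 are lowest and C1qtnf7 highest in sub-cluster 4, and the leading genes of sub-cluster 3 differ least from the other columns.

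Stress and chemokine genes lay in opposite directions in sub-clusters 1 and 3, each set against all other members. Sub-cluster 1 led in Nos2, Tfpi2, Ccl5, Csf2, Cxcl1 and Il1rl1. Cxcl1, a neutrophil chemokine, had 1312 CPM there and 70.1, 11.99 and 72.5 in sub-clusters 2, 3 and 4, while 65.5% of the Ccl5 UMIs of members came from 1 cell. Of 16 immediate early and heat shock genes 10 were at least 2-fold higher in sub-cluster 1 than in the other members, and 15 were lower in sub-cluster 3. Atf3, a stress-induced factor, ran from 59.3 CPM in sub-cluster 3 to 1153 in sub-cluster 1. Sub-clusters 1 and 3 thus lay at opposite ends for these genes.

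The genes of the Cilp and Grem1 list, which the choice used, were also uneven. Members of sub-cluster 1, the deepest, held a median of 19 UMIs of that list, against 2, 7 and 2 in sub-clusters 2, 3 and 4, and 82 of its 226 cells led that or another list by 1 gene. Sub-cluster 3 was the shallowest, with a median of 11356 UMIs against 16652 in sub-cluster 1 and a median mitochondrial share of 3.87% against 2.64%. Its leading genes Pid1, Phka2, Cercam, Chodl, Slc38a9 and Foxq1 had modest ratios, Pid1 the highest by its bound at a log2 ratio of 1.59 over the other members. The part of depth and of mitochondrial share in this sub-cluster was not tested.

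For a view across ages, members were set beside 669 P10 cells with at least 3 of Tnmd, Scx, Thbs4, Mkx and Kera that did not pass the choice of the members, of 692 such cells. Those 5 genes selected the P10 cells, so their direction is fixed by choice. Of 9013 genes 1116 (12.4%) were at least 2-fold higher in members and 593 (6.58%) lower, with the median gene at 0.14 and median depths of 14806 and 15709 UMIs. Of the type I collagen chains, Col1a1 was nearly level, at 75084 CPM in members and 76689 at P10. Col1a2 was lower in members by less than 2-fold, at 66452 and 79376. The fibrillar list had 2 higher and 2 lower genes of 9 (median -0.031). Col3a1 was higher in members (5393 and 1407) and the fibril-associated Col14a1 lower (20.8 and 282).

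Genes that process collagen were lower in members than in these P10 cells. Of 16 folding and cross-linking genes 9 were at least 2-fold lower and 0 higher (median -1.07). Serpinh1 had 619 CPM in members and 2171 at P10, the prolyl hydroxylase gene P4ha1 174 and 429, and the peptidyl-prolyl isomerase gene Fkbp10 403 and 911. Members thus had Col1a1 near the P10 level, and Col1a2 below it by less than 2-fold, beside lower levels of most of these processing genes. Cell cycle genes were lower too, 9 of 12 measured (median -1.62), with Mki67 at 2.55 and 20.7, and contractile genes, 4 of 8 (median -1.17), with Acta2 at 12.1 and 85.5.

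The lowest genes against P10 included microfibril and matrix-remodelling genes. Mfap4, a microfibril-associated protein, had 18 UMIs in members (1.76 CPM) against 697 CPM at P10. Mfap2 had 21.9 and 438, fibrillin 2 (Fbn2) 1.76 and 88.4, periostin (Postn) 4.01 and 164, and Cthrc1, a secreted protein of collagen-depositing cells, 4.31 and 268. Elastin was also lower (79.7 and 328), in the direction of Mfap4, Mfap2 and Fbn2. The elastic fibre and lysyl oxidase list as a whole had 3 higher and 7 lower of 22 measured. Agtr2, an angiotensin receptor, had 1.17 and 76.8 CPM.

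Highest against P10 were Clec3b, Myoc, Dmkn, Ibsp, Dab1 and Csf2, of which Clec3b is there by choice. Myoc had 1823 CPM in members and 3.77 at P10, Spp1 37978 and 959, and Angptl7 1408 and 76.1. Myoc and Spp1 were also high in other 8-week groups, with Spp1 at 19460.3 in Car3 or keratin cells and 1906 in blood cells, whereas Angptl7 was at 5.59 in blood cells. The matricellular list had 10 higher and 3 lower of 16 (median 1.21). Tenascin X (Tnxb), a matrix protein that spaces collagen fibrils, had 538 CPM in members and 33.5 at P10, and tenascin C the reverse, 16.2 and 159. Immediate early genes were higher at 8 weeks, 7 of 16 by 2-fold, and chemokine genes likewise, 6 of 9.

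The choice took few cells at P10. There 52 of 6999 kept P10 cells (0.743%, 0.555 to 0.973%) met it, of which 23 were tendon gene cells by the list above. Against these cells 777 of 7424 genes (10.5%) were at least 2-fold higher in members and 520 (7%) lower. The P10 cells had 1630.3 CPM of Pi16, 1475 of Mfap5, 561 of Cd34 and 1958 of Fbn1, against 0, 8.32, 9.89 and 111 in members. Pi16 and Cd34 mark interstitial fibroblasts, and members had 0 and 101 UMIs of them. Angptl7 was at 15.3 CPM in them, against 1408 in members, and Clec3b at 483.

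Exogenous sequences, among them TDT and WPRE4, were counted in a separate matrix that the choice did not use. WPRE4 is named for a stabilizing element that many reporter cassettes carry, but the labels do not say that it belongs to the R26tdTomato transcript, so its counts are given as those of that sequence. It had 814 UMIs in members, 79.7 CPM (74.3 to 85.4). The levels were 78.6 CPM in Cilp Grem1 cells (73.6 to 83.97), 57.6 in Hp Apod cells, 66.2 in Panx3 cells and 61.5 in blood cells (44.7 to 82.6), with 2396 in Car3 or keratin cells. The interval of members overlapped that of blood cells, whose counts are read as background, and lay above those of Hp Apod (52.7 to 62.8) and Panx3 cells (62.1 to 70.4). At least 10 WPRE4 UMIs were found in 1 of 642 members (0.156%, 0.00394 to 0.865%) and in 57.2% of Car3 or keratin cells. Blood cells, like members, were taken below the Car3 and keratin limits. They were shallower than members, with a median of 6417 UMIs, and their interval rests on 44 WPRE4 UMIs. A WPRE4 UMI was found in 28.1% of blood cells and in 61.4% of members. These counts do not settle whether members as a group held WPRE4 above background.

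The single member past 10 UMIs had 62 WPRE4 UMIs, the next highest 9. It had 26943 UMIs in all, with 151 of Cilp2, 10 of Igfbp6, 1 each of Car3 and Tagln, 0 of Krt8, Krt18, Krt19 and Pecam1, and 0 of the tdTomato sequence TDT, and it lay in sub-cluster 1. Without it, WPRE4 in members was 73.8 CPM. TDT was sparse everywhere, with 12 UMIs in members (1.17 CPM, 0.607 to 2.05) against 28.6 CPM in Car3 or keratin cells and 1.398 (0.0354 to 7.79) in blood cells. Tagln itself, whose promoter drives the Cre, had 5.97 CPM in members (4.57 to 7.67), 8.25 in Cilp Grem1 cells and 75.7 in Car3 or keratin cells, and was 9.38 in P10 tendon gene cells. Acta2, the smooth muscle actin gene, had 12.1 CPM in members and 378 in Car3 or keratin cells. Over sub-clusters 1 to 4, WPRE4 stood at 83.4, 80.6, 85.2 and 68.6 CPM. Tagln at P5, when Cre was induced, was not measured.

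**Figure D5:**
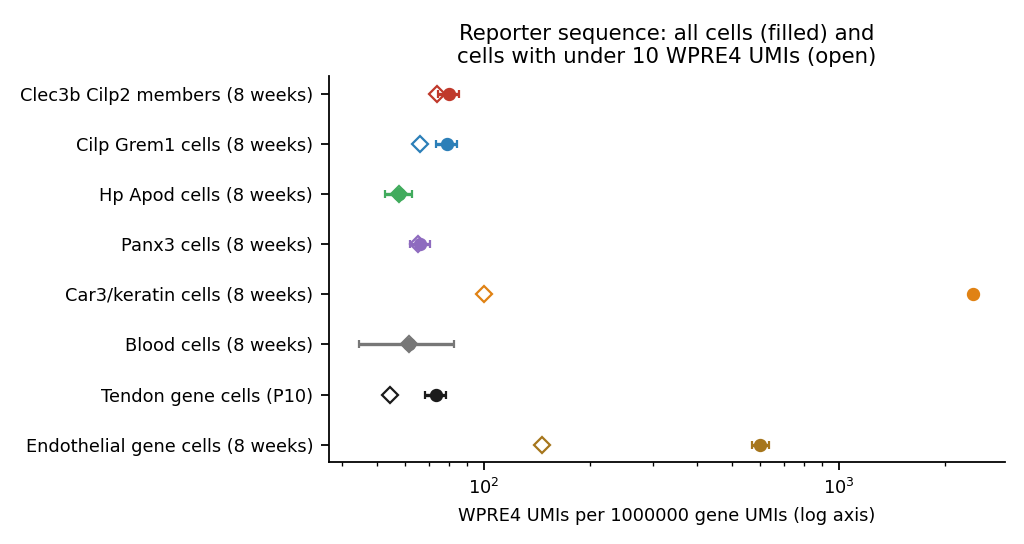
WPRE4 UMIs per 1000000 gene UMIs (log axis) in members and other groups, with exact 95% Poisson intervals; filled points are all cells, open diamonds cells with under 10 WPRE4 UMIs. Members lie with Cilp Grem1, Hp Apod, Panx3 and blood cells, and Car3 or keratin cells and endothelial gene cells lie above them.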

How the data were processed

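Single cells of whole discs from 8 samples, 4 at each of 2 ages, were analysed. The authors deposited raw counts (UMIs per gene and cell) in 1 matrix per age, made with Cell Ranger 3.1.0 per the file headers, with mm10 (GRCm38) and Seurat 3 named in the submitters' processing notes. A second deposited matrix holds counts of exogenous sequences for the same barcodes. The barcodes carry no sample number, so an age is 1 sample and no p-value was computed.

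A cell was kept with 500 or more genes and 1000 or more UMIs, of which up to 15% could be mitochondrial. Counts were summed over the cells of a group and scaled to 1000000 gene UMIs (CPM). Levels have exact Poisson intervals, shares Clopper-Pearson intervals and ratios conditional binomial intervals, all at 95% and for counting error only. Genes whose UMIs in the compared groups came to 100 or more were used, and 2-fold was the call. Blood and endothelial gene cells had at least 3 reference genes of their kind with at least 2 UMIs. They were taken from cells below the Car3 and keratin limits that were not members. Tendon gene cells were also taken below these limits. Doublets were scored with Scrublet in Scanpy 1.11.5 and kept. At P10 it called 0 cells and is taken not to have worked. Members were clustered on 800 variable genes and 15 components with leidenalg 0.10.2. The scripts were tested on simulated data, and Python 3.11.15 and scipy 1.17.1 were used.

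The members and gene lists were chosen with earlier results of these data known. Genes were named by a rule. It took the 12 highest and 12 lowest genes against Cilp Grem1 cells ranked by the end of the interval closer to no difference, leaving out predicted, sex-linked, hemoglobin, ribosomal and mitochondrial genes, and 6 each way against every other group. It also took up to 5 genes of each list with the most UMIs in members, the genes used in the choice and the 6 leading genes of each sub-cluster. Not every gene that it took is described, and some results are not reported here. Other genes of the lists were named after their values were seen. Promoter sequences came from RefSeq (GRCm38.p6), where 6 of 8 genes sought had an entry.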

Additional observations from a re-analysis of the deposited data

Results flagged for a closer look

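The Cre sequence was counted among the exogenous sequences but enters no comparison. It had 4 UMIs in the kept cells of 8 weeks, where no sample without Cre gives a background, and this is above the limit of 3 counts. All 4 UMIs lay in Car3 or keratin cells and 0 in members.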

How the results depend on the processing

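No paired analysis was possible because each age is 1 library and no test was made. Leaving out a sample was not possible either, since barcodes carry no sample number. The number of members was 777 with 2 of the 5 genes asked for, 393 with 4, 715 and 578 with 1 or 3 UMIs counting a gene as present, and 465 with the choice made on cells thinned to 5000 UMIs. WPRE4 in members was 87.9 CPM with 2 genes, 72.1 with 4 and 73.4 with the thinned choice. Leaving out cells in which markers of another class reached 10 UMIs gave 73 genes higher in members than in Cilp Grem1 cells, 210 genes lower in members than in Cilp Grem1 cells and a WPRE4 level of 92.1 CPM, because it kept only 78 members and 44 Cilp Grem1 cells, most others passing through Ndufa4l2, Pmp22 or Ibsp. The same step without those genes and Smpd3, an alternative added after the data were seen, gave 326 higher, 874 lower and 79.2 CPM. The counts were 2151 and 2963 with no minimum beyond 1 UMI and 146 and 504 with a minimum of 400 UMIs, as more or fewer genes were tested, and 440 and 654 with ratios centred on the median gene.

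Of 2343 comparisons of named genes under other settings, 8 turned a ratio whose interval did not reach 0 to the other sign, and 23 did so for a ratio whose interval reached 0 (Car3, Col5a3, Col6a1, Krt19, Lef1, P4ha1 and Slc38a9). Of the former, Abi3bp had log2 ratios of 0.064 with the thinned choice, 0.095 without cells carrying markers of another class and 0.12 after centring. Igfbp7 was at 0.45 without cells of other markers and 0.014 after centring, Pecam1 at 0.037 with 1 UMI as presence, Mia at -0.50 with the thinned choice and Ndufa4l2 at 0.093 without cells of other markers. Of the 22 list medians, the Wnt list was at 0.77 with 2 genes, 0.34 with 1 UMI as presence, 0.19 with a minimum of 50 UMIs and 1.31 with none. The contact and sensing list was at -0.13 with 4 genes, -0.24 with the thinned choice, -0.47 without cells of other markers, -0.32 with a minimum of 400 UMIs and -0.39 with thinned levels. The collagen folding list was at -0.41 without cells of other markers and -0.024 with each cell weighted equally. The IGF list was at -0.14 with no minimum and -0.036 with thinned levels, the contractile list at -0.19 with no minimum and with a minimum of 400, and -0.14 with thinned levels, and the TGF beta and BMP list at 0.073 after centring. The causes of these changes were not tested. The other list medians kept their sign in the settings that gave a value, those of collagens, proteoglycans, tendon, complement, cartilage and immediate early genes among them.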
